A study of Mus musculus with 51 samples.

Results

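The receptors Notch1, Notch2 and Notch3, the ligands Dll1, Dll3, Jag1 and Jag2, the transmembrane protein Dner and the transcription factor Rbpj are 9 of the 22359 protein-coding genes that the GENCODE annotation places on the mm9 mouse genome. A peak was counted for a gene when it overlapped the gene body or the 10 kb on either side of it. In this way 782 of the 803595 peaks of 6 lists lay at these genes: for aNPC, eA and lA in this order 71, 92 and 103 H3K27ac peaks, and 154, 171 and 191 H3K4me1 peaks. The same order of stages is kept wherever 3 values are given. The lists come from ChIP-seq, in which antibody-bound chromatin is sequenced, of H3K27ac, an acetylation found at active promoters and enhancers, and of H3K4me1, a methylation found at enhancers with or without activity.

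The cells were of C57/BL-6 background and were grown in vitro from embryonic stem cells, with no knockdown or transgene named for these samples. Progenitors (aNPC) were kept in DMEM-F12 with N2, EGF and FGF-2, and early (eA, day 1) and late astrocytes (lA, day 5) followed in DMEM with 1% serum and LIF, so the medium changed together with the stage. The lists held 79413, 83433 and 92700 H3K27ac peaks in aNPC, eA and lA and 154238, 185478 and 208333 H3K4me1 peaks, and the read depth behind them is unknown. Each of the 6 groups had 2 replicates, which the authors merged before they called peaks, so every difference between stages below has no replicate error and no test. The other samples of the 51 in the series, RNA-seq among them, were not analysed here.

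Notch receptors are cell-surface proteins that are activated by ligands of the Delta and Jagged families on neighbouring cells. The cleaved receptor enters the nucleus and acts through Rbpj, which binds DNA and otherwise recruits co-repressors. In the developing brain the pathway keeps progenitors from becoming neurons and takes part in the formation of astrocytes.

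Some of the peaks at these genes are shown first, because the account of each gene turns on them. All are 200 bases of the plus strand of mm9 centred on the summit of an H3K27ac peak, the position of its maximum. The first lies upstream of Jag1 at chr2:136942664-136942863, the second upstream of the Dll1 start site at chr17:15513267-15513466, the third in the first part of Jag1 at chr2:136940842-136941041 and the last beyond the end of Dner at chr1:84357203-84357402. Capitals mark letters of the motifs described further on.
Jag1 upstream, aNPC: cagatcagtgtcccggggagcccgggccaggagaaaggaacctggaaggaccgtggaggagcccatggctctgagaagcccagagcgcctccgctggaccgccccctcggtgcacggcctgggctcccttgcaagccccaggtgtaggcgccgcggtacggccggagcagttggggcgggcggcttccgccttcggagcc
Dll1 upstream, aNPC: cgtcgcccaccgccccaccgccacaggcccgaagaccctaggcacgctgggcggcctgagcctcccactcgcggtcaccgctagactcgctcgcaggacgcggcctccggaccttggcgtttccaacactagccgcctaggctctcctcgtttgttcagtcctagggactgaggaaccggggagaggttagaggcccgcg
Jag1 intron, aNPC: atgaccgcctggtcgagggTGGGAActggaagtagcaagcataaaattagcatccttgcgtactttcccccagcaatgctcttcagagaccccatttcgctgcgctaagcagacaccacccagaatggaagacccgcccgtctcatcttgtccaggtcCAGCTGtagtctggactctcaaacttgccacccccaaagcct
Dner downstream, lA: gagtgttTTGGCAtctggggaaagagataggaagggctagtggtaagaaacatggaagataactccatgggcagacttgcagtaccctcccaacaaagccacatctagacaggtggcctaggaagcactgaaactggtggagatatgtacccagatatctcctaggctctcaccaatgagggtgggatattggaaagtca
The Jag1 and Dll1 promoter summits were rich in G and C, at 71.5% and 68.5% of their bases, the intronic Jag1 summit had 54.5% and the Dner summit 48.5%.

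As a check of the stages, H3K27ac promoter peaks were counted for marker genes of 8 cell types. Promoter peaks lay at 7, 7 and 8 of 10 astrocyte markers in aNPC, eA and lA, and at 6 of 7 neural progenitor markers at every stage. The bases inside H3K27ac peaks summed to 61229, 74936 and 71796 at the astrocyte markers and to 28838, 24545 and 22665 at the progenitor markers, among them Olig2 at 6884, 3926 and 3850 and Fabp7 at 5336, 3205 and 2369. Several progenitor markers did not share this order, with Nes at 5332, 5616 and 5731, Vim at 2692, 3278 and 2730, Sox2 at 3042, 3401 and 2836 and Pax6 at 2602, 2669 and 2527. The astrocyte marker S100b went against its sum, at 2459, 739 and 746. Promoter peaks lay at 1, 2 and 1 of 5 neuron markers, and at 2 of 4 fibroblast and mesenchyme markers at every stage. Oligodendrocyte (4), embryonic stem cell (4), microglia (3) and endothelial markers (3) had 0 at every stage. The bases summed at the neuron markers were 3314, 6129 and 4187, with 3, 1 and 2 of 5 at 0. Among them Dcx held 2400, 145 and 0 bases and Rbfox3 0, 3528 and 2283. At the oligodendrocyte markers they were 3959, 6798 and 8097, with 1, 0 and 1 at 0, of which Mbp held 1720, 3942 and 6039, while Sox10 held 975, 608 and 0. At the embryonic stem cell markers they were 1718, 4344 and 5869, of which Nanog held 475, 3010 and 4319, while Zfp42 and Dppa5a were at 0 at every stage. The part of these in the values below was not tested. Fewer cells with a mark and less of the mark per cell cannot be told apart in these bulk samples.

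In aNPC, 6 of the 9 genes had an H3K27ac peak at the promoter, the stretch from 1 kb before to 100 bp behind a coding start site, against 50.6% of all coding genes. In eA it was 8 of 9, against 53.2%, and in lA 5 of 9, against 48.2%. Notch2, Dll1, Jag1 and Rbpj had such a peak at every stage, and Jag2 at none. H3K4me1 lay at 7 of 9 promoters at each stage, against 55.4%, 53.6% and 52.7% of all genes. Jag1 was without an H3K4me1 promoter peak at every stage. From aNPC to eA, 2 promoters gained H3K27ac (Notch3 and Dner, background 4.23%) and 0 lost it (1.62%). From eA to lA, 0 gained it (1.28%) and 3 lost it (Notch1, Notch3 and Dll3, 6.29%), so that from aNPC to lA, 1 had gained it (Dner, 2.66%) and 2 had lost it (Notch1 and Dll3, 5.05%). Counted within 1 kb on either side of a start site, H3K27ac lay at 8, 8 and 7 of the 9 promoters, since peaks of Notch1, Notch3 and Dner began just downstream of a start site in several stages.

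**Figure D1:**
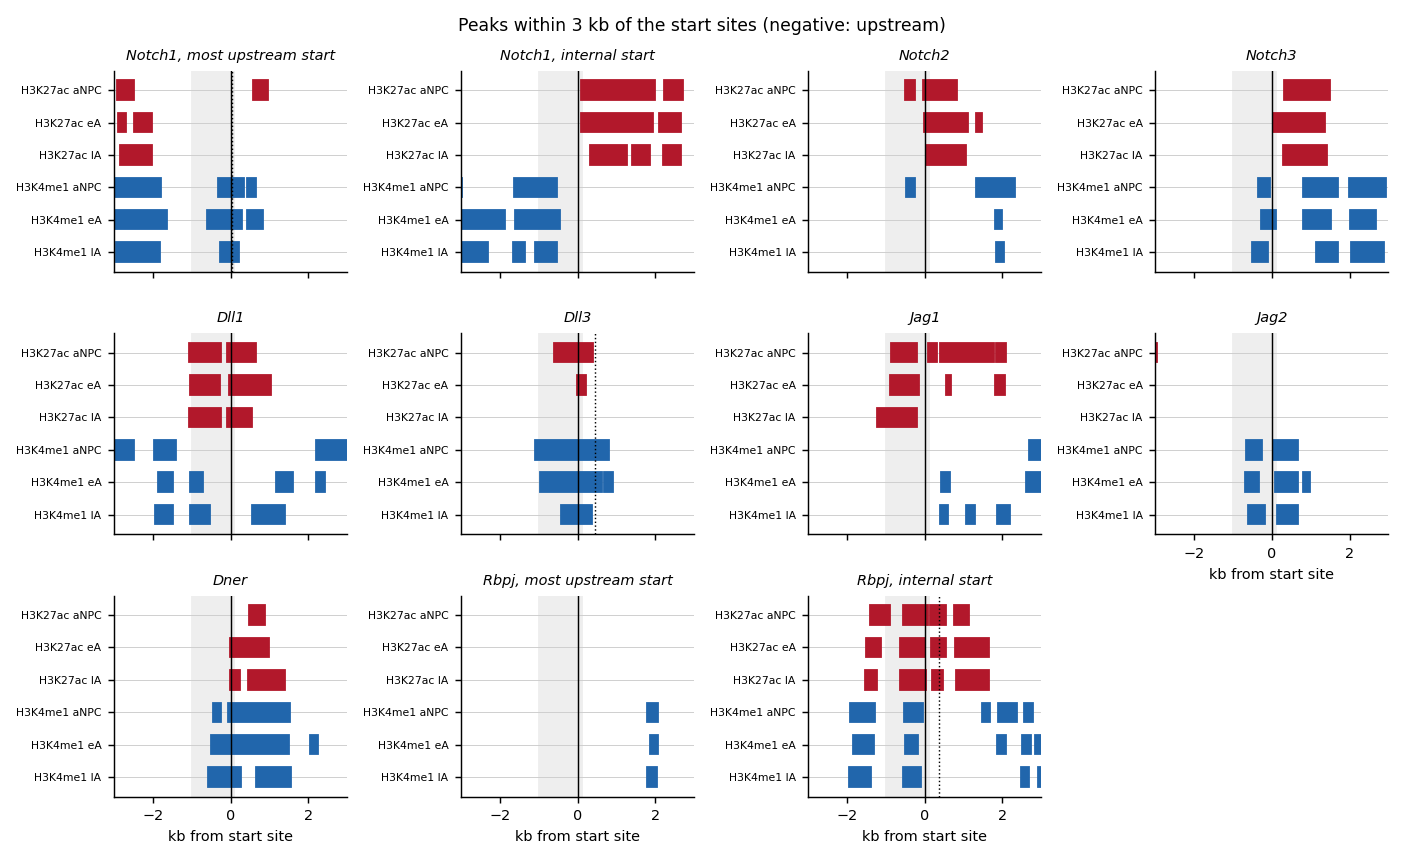
Peaks of H3K27ac (red) and H3K4me1 (blue) in aNPC, eA and lA within 3 kb of the start site of each gene (solid line; dotted, other coding start sites), with distance in kb along the direction of transcription and the promoter shaded in grey. Jag2 has H3K4me1 on both sides of its start site and 0 H3K27ac promoter peaks, and Jag1 has H3K27ac and 0 H3K4me1 promoter peaks.

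The extent of a mark was measured as the bases of a gene's window inside peaks. H3K27ac covered 40.3, 54.0 and 60.0 kb of the windows together. H3K4me1 covered 88.5, 105 and 107 kb. Dner, whose window of 346 kb is the longest, held 6.32, 18.8 and 24.8 kb of the H3K27ac, and the other 8 genes together 34.0, 35.1 and 35.2 kb. A change was called where the higher stage had at least 500 covered bases and at least 2 times those of the lower stage. From aNPC to lA, 2 of the 9 genes were called higher for H3K27ac (Notch3 and Dner), against 14.9% of 15682 genes tested, and 2 lower (Dll3 and Jag2), against 11.1%. The calls of Jag2, which rest on 569 bases, were lost with a minimum of 1000 covered bases.

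From aNPC to eA, 1 gene was called higher (Dner, background 12.2%) and 2 lower (Jag1 and Jag2, 7.91%). From eA to lA, 0 were called higher (5.78%) and 1 lower (Dll3, 6.72%), a call that was lost with a flank of 5 kb and with peaks nearest to the gene's own start site. For H3K4me1, 0 genes were called in either direction from aNPC to eA (5.07% higher and 0.671% lower), and Rbpj alone was called higher from eA to lA (3.83%) and from aNPC to lA (10.9%), with 0 called lower (2.60% and 2.40%). The median ratio over all genes with covered bases at both stages was not always 1. Its log2 was 0.14 for H3K27ac from aNPC to eA, -0.09 from eA to lA and 0.00 from aNPC to lA, and for H3K4me1 0.18, 0.00 and 0.18.

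**Figure D2:**
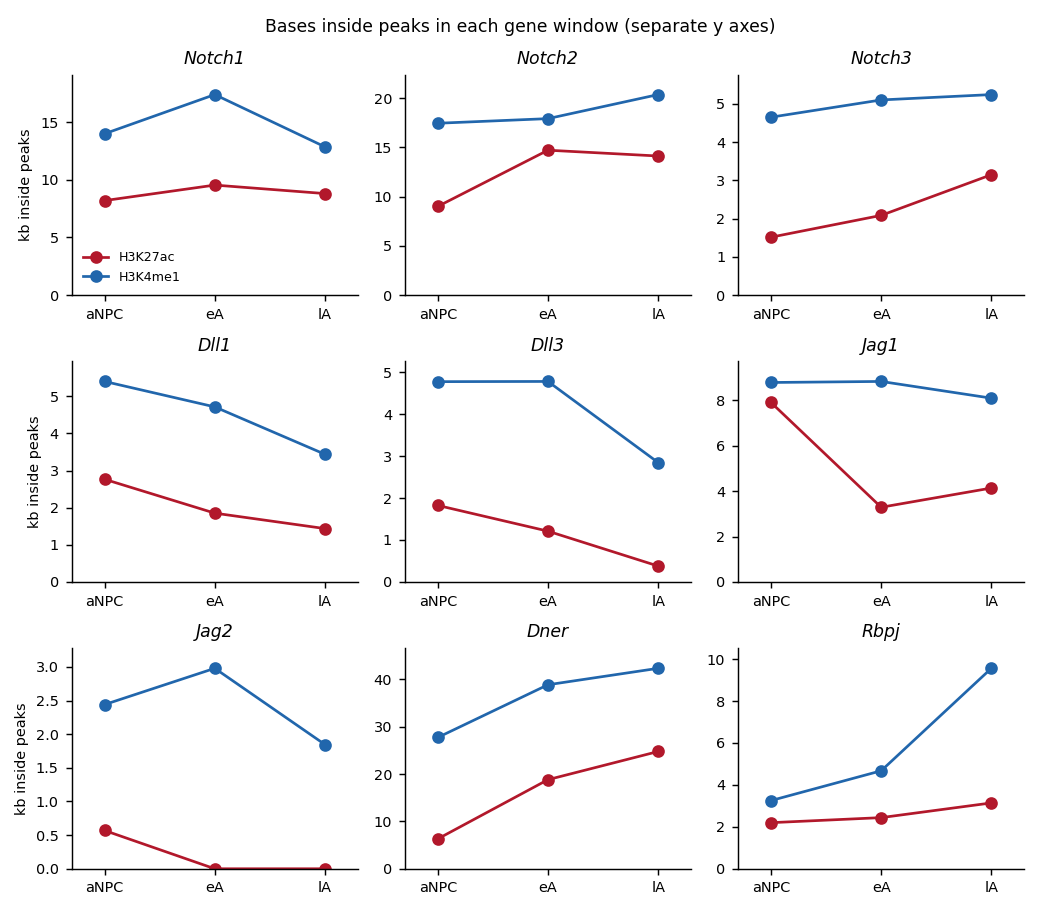
Bases inside H3K27ac (red) and H3K4me1 peaks (blue) in the window of each gene, in kb, in aNPC, eA and lA, with 1 merged list per point and a separate y axis for each gene. H3K27ac goes from 6.32 to 24.8 kb at Dner and from 1.82 to 0.378 kb at Dll3, while H3K4me1 goes from 3.25 to 9.56 kb at Rbpj.

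Notch1 (ENSMUSG00000026923.8, chr2:26313423-26372183, minus strand), a receptor with a broad role in progenitor maintenance, was called for neither mark. Its 11, 15 and 15 H3K27ac peaks covered 8207, 9555 and 8818 bases. H3K4me1 covered 14018, 17421 and 12881 bases, highest in eA. The ratios of lA over aNPC were 1.07 and 0.919.

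Most H3K27ac elements of Notch1 lay inside the gene, and 3 of 16 in its flanks. An element 2.46 kb upstream, at chr2:26374194-26375103, carried H3K27ac and H3K4me1 at every stage with an H3K27ac −log10 q of 4.44 in aNPC, of 8.03 in eA (above 43.3% of the list) and of 16.8 in lA (above 75.3%). The −log10 q is the caller's significance at the summit. It depends on the depth of a library, which is unknown here, so it is not compared between lists, and ranks inside a list are given beside it. A rank in turn depends on how many weaker peaks a list holds. At the most upstream start site, 26372183, the promoter held 0 H3K27ac peaks and 1 H3K4me1 peak at each stage. Near an internal start site 12841 bases further downstream, a peak of 1919 bases in aNPC had a −log10 q of 67.7, higher than 88.5% of its list. The eA peak there spanned 1857 bases and ranked above 94.0% of its list, and in lA the same element held peaks of at most 16.4, above 74.6%. The element starts within 100 bases downstream of the internal start site in aNPC and eA and further down in lA, and it held no H3K4me1 peak at any stage.

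The Notch1 peak of aNPC with the highest −log10 q, 71.9 (above 89.3% of the list), lay in an intron at chr2:26355803-26356294. It was found at every stage, ranked above 86.3% in eA and 91.0% in lA, and was also without H3K4me1 in every list. The 200 bases around its aNPC summit, chr2:26355892-26356091, had 51.5% of G and C and none of the motifs searched.
Notch1 intron, aNPC: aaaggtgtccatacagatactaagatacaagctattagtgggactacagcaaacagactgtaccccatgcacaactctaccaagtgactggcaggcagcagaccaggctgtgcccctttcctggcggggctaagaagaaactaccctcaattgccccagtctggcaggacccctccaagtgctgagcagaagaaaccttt
Of the 16 merged H3K27ac elements of Notch1 (overlapping peaks of the stages joined), 8 were found at all stages, 2 in aNPC alone, 1 in eA alone and 1 in lA alone.

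Notch2 (ENSMUSG00000027878.9, chr3:97817461-97954290, plus strand), a receptor expressed in glial and progenitor cells, held more H3K27ac in eA and lA than in aNPC, short of the 2 times set for a call. Covered bases were 8996, 14702 and 14113, ratios of 1.63 and 1.57 over aNPC. H3K4me1 covered 17438, 17908 and 20349 bases. The promoter peak began at the start site and was found at every stage, spanning 854, 1112 and 1024 bases and ranking above 95.1%, 99.1% and 96.9% of its list. H3K4me1 was found at this promoter in aNPC alone, as a peak of 219 bases with its summit 374 bases upstream. That peak lay over an H3K27ac peak of 257 bases, which was also found in aNPC alone.

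Most other H3K27ac of Notch2 lay in introns, at 10 elements found at every stage, the promoter included, 4 in eA and lA, and 3 each in eA alone and lA alone. The widest of those absent in aNPC spanned chr3:97860205-97861956, with a rank above 67.9% of the peaks of eA and 92.0% of those of lA. It carried H3K4me1 in eA and lA and not in aNPC, so that both marks were first called there in eA. The 200 bases around its lA summit, chr3:97861406-97861605, are shown because this was the highest-ranked Notch2 peak of lA that was absent in aNPC.
Notch2 intron, lA: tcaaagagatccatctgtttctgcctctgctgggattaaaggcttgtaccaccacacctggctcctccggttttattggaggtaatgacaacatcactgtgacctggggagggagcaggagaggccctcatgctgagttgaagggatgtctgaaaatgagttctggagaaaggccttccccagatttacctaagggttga
Between 91.2 and 93.7 kb from the start site, 3 neighbouring elements were found at every stage, and the middle element ranked above 65.5%, 89.6% and 91.6% of the lists. Part of the H3K27ac in the window lay nearer to another gene's start site. With only those peaks nearest to the start site of Notch2, covered bases were 5387, 10156 and 9487, ratios of 1.89 and 1.76 over aNPC.

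Notch3 (ENSMUSG00000038146.7, chr17:32257765-32303825, minus strand), a receptor best known from vascular smooth muscle cells and also found in neural progenitors, was called higher for H3K27ac in lA than in aNPC. Its 2, 3 and 5 peaks covered 1512, 2082 and 3145 bases, a ratio of 2.08 for lA over aNPC. H3K4me1 covered 4649, 5100 and 5240 bases, with 8 peaks at each stage. The H3K27ac peak by the start site was found at every stage, above 77.8%, 87.7% and 92.4% of its list, and reached into the promoter as defined here in eA alone.

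Most of the added H3K27ac of Notch3 lay outside the gene. A pair of elements 6.06 and 6.75 kb upstream, at chr17:32309476-32310303 and chr17:32310359-32310787, had no H3K27ac peak in aNPC, and ranked above 41.5% and 35.0% of the peaks of eA and above 84.9% and 74.2% of those of lA. Both carried H3K4me1 at every stage. With the window cut to 5 kb on either side, which leaves out this pair and an element downstream of the gene with H3K27ac in aNPC and lA, H3K27ac covered 1193 bases in aNPC and 1446 in lA, the ratio was 1.21 and Notch3 was not called. The summit of the larger element is shown at chr17:32309744-32309943.
Notch3 upstream, lA: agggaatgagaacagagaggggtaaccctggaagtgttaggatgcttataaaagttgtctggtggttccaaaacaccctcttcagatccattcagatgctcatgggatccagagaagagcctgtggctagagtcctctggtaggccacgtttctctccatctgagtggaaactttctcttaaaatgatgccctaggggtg

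Dll1 (ENSMUSG00000014773.7, chr17:15504318-15513836, minus strand), a Delta ligand of differentiating progenitors and young neurons, held less of both marks at the later stages, without reaching the 2 times. H3K27ac covered 2766, 1853 and 1437 bases, a ratio of 0.520 for lA over aNPC, and H3K4me1 5403, 4717 and 3440 bases, a ratio of 0.637. With equal numbers of peaks per list, the H3K4me1 ratio was 0.459 and Dll1 was called lower.

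At the Dll1 promoter, a pair of H3K27ac peaks was found at every stage, 1 on each side of a short gap upstream of the start site at 15512940. The upstream peak, whose aNPC summit is the second sequence above, spanned 826, 775 and 808 bases. It ranked above 95.3%, 81.4% and 68.4% of its list. H3K4me1 overlapped this promoter in eA and lA and not in aNPC, where the nearest H3K4me1 peaks lay on either side. Downstream of the gene, 2 elements were found in aNPC alone, and the stronger, at chr17:15502729-15503590, ranked above 66.7% of that list and carried H3K4me1 at every stage. Its 200 summit bases, chr17:15502899-15503098, held 37.0% of G and C and 1 E-box, in capitals.
Dll1 downstream, aNPC: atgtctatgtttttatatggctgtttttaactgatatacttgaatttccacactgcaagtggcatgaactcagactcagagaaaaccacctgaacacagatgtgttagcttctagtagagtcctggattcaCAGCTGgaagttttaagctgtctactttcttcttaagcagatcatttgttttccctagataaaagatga

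Dll3 (ENSMUSG00000003436.10, chr7:29076673-29087257, minus strand) differs from the other Delta ligands in that it acts inside the signalling cell and does not activate receptors on neighbours. Its promoter peak was narrower in eA than in aNPC and was not called in lA. It spanned 1004 bases in aNPC (−log10 q 21.1, above 69.7% of the list) and 254 bases in eA (5.58, above 26.7%). H3K4me1 stayed at this promoter at every stage, with 1895, 1581 and 797 bases and ranks above 92.2%, 89.7% and 83.2%. The summit of the aNPC peak, chr7:29087478-29087677, is shown.
Dll3 promoter, aNPC: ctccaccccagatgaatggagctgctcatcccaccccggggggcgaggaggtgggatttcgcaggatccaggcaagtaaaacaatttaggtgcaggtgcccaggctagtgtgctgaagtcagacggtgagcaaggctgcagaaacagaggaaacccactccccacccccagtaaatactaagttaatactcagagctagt
In the whole window H3K27ac covered 1824, 1210 and 378 bases, a ratio of 0.207 for lA over aNPC. The peaks other than the promoter peak lay at or beside the promoter of Timm50, a gene of the mitochondrial import machinery, near the edge of the window. With peaks nearest to another gene's start site left out, H3K27ac covered 1004 and 254 bases in aNPC and eA and was listed at 0 in lA, and the same bases were found with a flank of 5 kb. The call from aNPC to lA was kept in both settings and that from eA to lA was not, since 254 bases are under the 500 set for a call. In both settings Dll3 was also called lower from aNPC to eA, with a ratio of 0.253, against 0.663 and no call in the whole window. In the whole window the Timm50 promoter element gave 956 bases in eA and 378 in lA. H3K4me1 with peaks nearest to the gene's own start site covered 1895, 1825 and 797 bases, and Dll3 was called lower for this mark too, with a ratio of 0.421.

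Jag1 (ENSMUSG00000027276.7, chr2:136907192-136942380, minus strand), a Jagged ligand found in progenitors and astrocytes, held less H3K27ac in eA than in aNPC. Covered bases were 7911, 3291 and 4139. The ratio for eA over aNPC was 0.416, which was called, and that for lA over aNPC 0.523, which was not. The lA ratio was 0.498, and called, with equal numbers of peaks per list, and 0.470 with a −log10 q of at least 5. H3K4me1 covered 8793, 8839 and 8102 bases over the same window, ratios of 1.01 and 0.921 over aNPC.

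The peak upstream of Jag1, the first sequence above, was found at every stage with widths of 663, 734 and 1040 bases. It ranked above 97.7%, 88.4% and 96.0% of its list and held no H3K4me1. The difference lay further down. A peak of 1404 bases in aNPC at chr2:136940596-136941999, from 381 to 1784 bases downstream of the start site, ranked above 78.1% of its list. The eA peak there ranked above 30.0%, and in lA there was no H3K27ac peak. H3K4me1 was absent from the same place in aNPC and present in eA and lA. Its aNPC summit, the third sequence above, held 1 match to the core of the Rbpj site and 1 E-box.

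Other intronic elements of Jag1 were also absent in lA. Of its 14 elements, 4 were found in aNPC and eA and not in lA, 2 in aNPC alone and 4 at every stage, while 0 were found in eA alone or in eA and lA. The element of 1796 bases at chr2:136918269-136920064 ranked above 81.9%, 62.7% and 46.3% of the lists. The 3 elements in lA alone were small, at 475, 196 and 361 bases, and carried H3K4me1 at every stage.

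Jag2 (ENSMUSG00000002799.5, chr12:114146801-114167706, minus strand), the second Jagged ligand, held little H3K27ac. In aNPC, 2 peaks 3.08 and 3.59 kb upstream covered 569 bases and ranked above 29.6% and 28.6% of the list, and in eA and lA the window was listed at 0. Neither peak carried H3K4me1. H3K4me1 itself covered 2441, 2980 and 1847 bases and overlapped the promoter at every stage. The window also overlaps the coding gene Nudt14. With only those peaks nearest to the start site of Jag2, H3K4me1 covered 1435, 1705 and 966 bases. In aNPC the H3K4me1 peak just inside Jag2, of 661 bases, ranked above 98.1% of the H3K4me1 list, and that of eA above 96.7%. In aNPC and eA, Jag2 thus held H3K4me1 of high rank beside a start site without H3K27ac.

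Dner (ENSMUSG00000036766.6, chr1:84366416-84692796, minus strand) encodes a transmembrane protein with Delta-like repeats that is abundant in neurons, where it has been described as a ligand of Notch on glia. It had the highest H3K27ac ratio of lA over aNPC of the 9 genes. Its 19, 38 and 45 peaks covered 6319, 18832 and 24783 bases, ratios of 2.98 for eA and 3.92 for lA over aNPC. H3K4me1 peaks numbered 48, 52 and 73, covering 27753, 38890 and 42364 bases, ratios of 1.40 and 1.53. Of all tested genes with bases at both stages, 97.0% had a lower H3K27ac ratio than Dner for lA over aNPC. When peaks below a −log10 q of 5 were dropped the ratio was 5.37, and with equal numbers of peaks 3.54.

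Dner covers 326 kb, and the peaks were unevenly placed along it. From 2 to 100 kb from the start site, H3K27ac peaks numbered 0, 7 and 8. The same stretch held 13, 12 and 15 H3K4me1 peaks. From 100 to 200 kb there were 2, 10 and 8 H3K27ac peaks, and from 200 to 340 kb, which runs past the end of the gene, 16, 20 and 27. Towards the end of the gene the nearest coding start site belongs to Pid1, a gene downstream. With only those peaks that lay nearest to the start site of Dner, H3K27ac covered 996, 6637 and 10479 bases, a ratio of 10.5 for lA over aNPC.

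**Figure D3:**
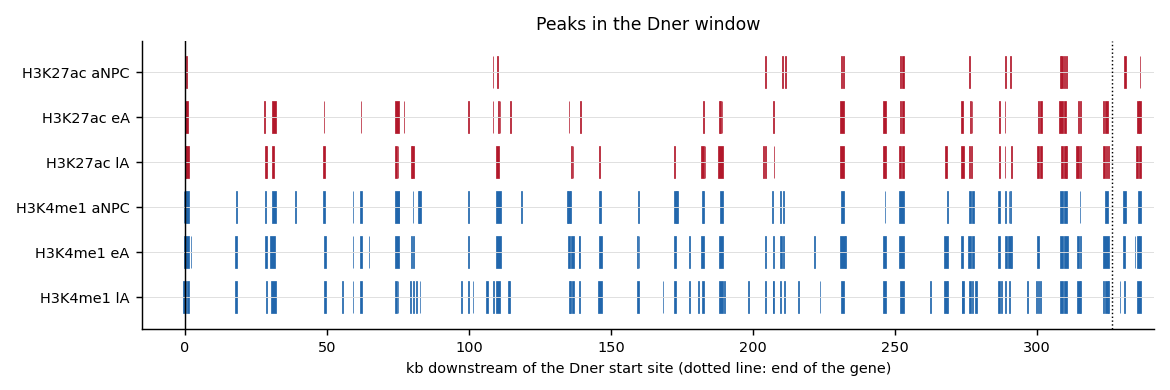
Peaks of H3K27ac (red) and H3K4me1 (blue) by stage along Dner, with distance in kb downstream of its start site and the end of the gene as a dotted line. From 2 to 100 kb the aNPC lists hold 0 H3K27ac and 13 H3K4me1 peaks.

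The element at the Dner start site was found at every stage. Its H3K27ac peak lay just downstream of the promoter in aNPC, where it ranked above 57.9% of its list, and overlapped it in eA (1018 bases, above 88.7%) and in lA (246 bases, above 56.9%). The highest H3K27ac peak of the whole element in lA ranked above 73.0% of its list. H3K4me1 covered this promoter at every stage. Of the 54 merged elements of Dner, 17 were found in eA and lA and not in aNPC, 12 in lA alone, 10 at every stage, 8 in eA alone and 3 in aNPC alone. H3K4me1 was called at 11, 16 and 17 of the 17.

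The Dner peak of lA with the highest −log10 q, 50.9 (above 95.9% of the list), lay 335 kb from the start site, beyond the end of the gene. It is the last of the sequences above and held 1 copy of TTGGCA. Its element was absent from the aNPC H3K27ac list and carried H3K4me1 at every stage. A pair of intronic elements, at chr1:84390996-84391777 and chr1:84391953-84392826, ranked above 91.7% and 94.0% of the lA list and above 76.8% and 74.6% of the eA list. The first carried H3K4me1 in lA alone and the second in eA and lA. Elements with H3K4me1 before H3K27ac and elements where H3K27ac was called first or together with it thus lay side by side in this gene.

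Rbpj (ENSMUSG00000039191.6, chr5:53947018-54048684, plus strand), the DNA-binding effector of all Notch receptors, was not called for H3K27ac and was called higher for H3K4me1. H3K27ac covered 2198, 2439 and 3140 bases, a ratio of 1.43 for lA over aNPC. H3K4me1 covered 3252, 4673 and 9560 bases, with 9, 13 and 20 peaks. The H3K4me1 ratio was 2.94 for lA over aNPC and 2.05 for lA over eA, and 96.8% of tested genes had a lower ratio from aNPC to lA. With equal numbers of peaks per list it was 2.27.

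Both marks at the start of Rbpj lay at the internal start sites, 53981454 and 53981813, and the most upstream start site, 53947018, held neither at any stage. The H3K27ac peak at the last of these sites spanned 407 bases in aNPC and ranked above 97.8% of its list. In eA it spanned 379 bases, above 95.0%, and in lA 269 bases, above 44.2%. The other elements of this stretch were also found at every stage. The element over the start site 53981454 ranked above 66.6%, 82.1% and 90.9% of the lists, that upstream of it at chr5:53979922-53980568 above 62.4%, 50.9% and 43.2%, and that downstream at chr5:53982215-53983117 above 86.5%, 94.5% and 94.4%. Of the 20 H3K4me1 peaks of lA, 9 were found in lA alone, and 1 of them lay upstream of the gene, with the others inside it.

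Over all 9 genes, H3K27ac elements numbered 129, of which 40 were found at every stage (31.0%, against 30.2% of the elements in the windows of all coding genes). Elements in eA and lA numbered 26 (20.2%, 95% Wilson interval 14.1 to 27.9), against 13.6%, below that interval. Elements in aNPC alone numbered 15 (11.6%, 7.17 to 18.3), against 18.9%, above that interval. Elements in lA alone numbered 23 (17.8%, against 16.6%) and in eA alone 13 (10.1%, against 12.4%), with both shares of all genes inside the intervals of these genes. Dner held 54 of the 129 elements, 17 of the 26 in eA and lA and 3 of the 15 in aNPC alone. Without Dner, 9 of 75 elements were in eA and lA (12.0%, 6.44 to 21.3), under the 13.6% of all genes, and 12 of 75 in aNPC alone (9.40 to 25.9), and both shares of all genes lay inside these intervals. The differences from all genes in the shares of elements in eA and lA and in aNPC alone thus rested on Dner. At every stage, 30 of the 75 were found (40.0%, 29.7 to 51.3). H3K27ac peaks found at 1 stage alone were 21.1% (13.2 to 32.0), 14.1% (8.45 to 22.7) and 22.3% (15.4 to 31.3) of the peaks of these genes. They were 36.0%, 17.7% and 27.7% of the whole lists, above the interval in aNPC and inside it in eA and lA.

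**Figure D4:**
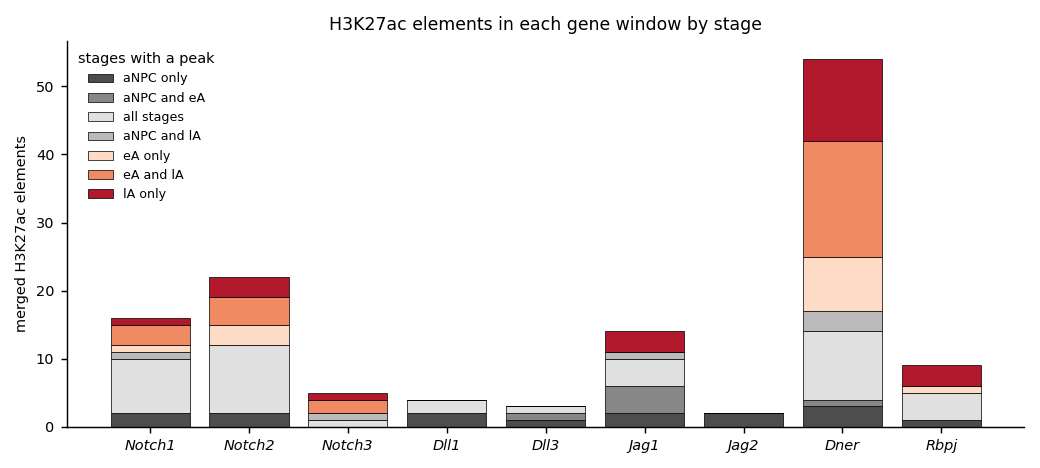
Number of merged H3K27ac elements in the window of each gene, coloured by the stages in which they held a peak. Dner holds 17 elements in eA and lA, 12 in lA alone and 8 in eA alone, while Jag1 holds 4 in aNPC and eA and Dll1 holds 2 in aNPC alone.

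H3K4me1 in the stage before was examined for new H3K27ac peaks, those with no H3K27ac peak at the stage before. In eA, 44 of the 92 peaks of these genes were new, and 29 of them (65.9%, 95% Wilson interval 51.1 to 78.1) overlapped an H3K4me1 peak of aNPC, against 64.1% of the new peaks of the whole list. In lA, 29 were new and 23 of them (79.3%, 61.6 to 90.2) overlapped an H3K4me1 peak of eA, against 65.8%. The first share of the whole list lay inside the interval of these genes, and so did the second. Dner gave 28 of the new peaks of eA, 18 of them with H3K4me1 in aNPC, and 15 of those of lA, 13 of them with H3K4me1 in eA. Jag1, Dll1, Dll3 and Jag2 had 0 new peaks in eA, and Jag1 had 4 in lA, all with H3K4me1 in eA. Such an interval reflects counting error alone, and neighbouring peaks of a gene are not independent.

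The share of H3K27ac peaks that overlapped H3K4me1 of the same stage was 71.8% (60.5 to 81.0), 77.2% (67.6 to 84.6) and 80.6% (71.9 to 87.1), against 82.0%, 86.5% and 82.2% of the whole lists. The values of the lists lay above the intervals in aNPC and eA and inside the interval in lA. Of the Dner peaks, 15 of 19, 33 of 38 and 41 of 45 overlapped H3K4me1 of the same stage. The set held 51 of 71, 71 of 92 and 83 of 103, so the other genes together had lower shares at each stage. Among the H3K27ac elements without H3K4me1 at any stage were that upstream of Jag1, that over the Notch2 start site and 4 of the 11 intronic elements of Notch1.

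The letters of 7 motifs were searched on both strands in the 200 bases around every summit. They were TGGGAA, the core of the Rbpj site, the full palindromic NF1 site, TTGGCA of the same NF1 family, TGANTCA of AP-1, AACCACA of RUNX, TTCNNNGAA of STAT and CAGCTG, an E-box of proneural factors. TTGGCA is part of many full NF1 sites, and TGGGAA read on the other strand shares its first letters with the STAT motif. TGGGAA was found in 17 of 71 H3K27ac windows of these genes (23.9%, 15.5 to 35.0) of aNPC, 25 of 92 of eA (27.2%, 19.1 to 37.0) and 25 of 103 of lA (24.3%, 17.0 to 33.4). Over the whole lists the shares were 19.1%, 19.2% and 19.9%. Each of these values lay inside the interval of its stage. In windows of 500 bases TGGGAA was found in 53.5% (42.0 to 64.6), 46.7% (36.9 to 56.9) and 54.4% (44.8 to 63.7), against 40.6%, 40.9% and 41.8% of the lists, so that with this window the value of the list lay below the interval in aNPC and lA.

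TTGGCA was found in 2 of 71 windows of aNPC (2.82%, 0.776 to 9.70), 9 of 92 of eA (9.78%) and 13 of 103 of lA (12.6%), against 11.1%, 11.5% and 11.0% of the lists. In aNPC the value of the list lay above the interval. By gene, Jag1 gave 2 of these windows at each stage, Notch2 0, 2 and 3, and Dner 0, 5 and 6. Notch1 and Notch3 gave 1 each in lA. In the H3K4me1 windows of aNPC, TTGGCA was found in 17.5%, against 17.3% of that list. Over the 3 stages together, TGANTCA was found in 9 of 266 windows (3.38%, lists 5.73%), AACCACA in 5 (1.88%, 3.84%, but 10.9% and 9.74% in windows of 500 bases), TTCNNNGAA in 14 (5.26%, 6.04%) and CAGCTG in 32 (12.0%, 12.4%). The full NF1 site was found in 0 of 266, and in 51 of the 255546 windows of the lists. A match to letters is not a bound site, and elements that recur at several stages were counted at each.

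The rest of the pathway was described from a list of 50 genes for receptor processing, ligand turnover, co-factors and targets. Promoter H3K27ac lay at 39, 39 and 34 of the 50 in aNPC, eA and lA, or 78.0%, 78.0% and 68.0%, against 50.6%, 53.2% and 48.2% of all coding genes. From aNPC to lA, 3 were called higher for H3K27ac and 4 lower, against 14.9% and 11.1% of all genes tested, and the median ratio over the 47 with bases at both stages was 1.04, against 1.00 over all genes. For H3K4me1, 2 were called higher and 1 lower, against 10.9% and 2.40%, with a median ratio of 1.03, against 1.13. The fourth receptor, Notch4, covered 2787, 2946 and 2861 bases of H3K27ac, and the ligand Dll4 1184, 1292 and 1750.

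Those called higher were Itch, an E3 ubiquitin ligase of the receptor, at 1798, 3779 and 3834 bases, Dtx2, a Deltex ubiquitin ligase, at 1258, 2413 and 3764, and Dlk1, a Delta-like protein, listed at 0 in aNPC and at 1006 and 1139 later. Those called lower held a feedback inhibitor and a target. Nrarp, the inhibitor, went from 1506 and 1471 bases to 0 in lA, and Heyl, a target repressor, from 2798 to 1214 and 1089. Neurl1b, a ubiquitin ligase of ligands, went from 3201 to 1361 and 789, and Dlk2, a Delta-like protein, from 1271 and 1247 to 323.

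By the Euclidean distance of log2 (covered bases + 500) over the 6 lists, the coding genes most like Dner were Shroom3 (0.37), Ror1 (0.63) and Ppp2r2b (0.72). Shroom3 covered 6826, 23795 and 26339 bases of H3K27ac, close to the values of Dner. The lowest measured ratio of lA over aNPC was that of Dll3, at 0.207, but a stage listed at 0 was placed below it, so the other gene compared was Jag2, with 569 bases in aNPC and 0 in lA. The genes most like it were Adra2b (0.33), 2810407A14Rik (0.42) and Bmp8a (0.45), all with H3K27ac in aNPC alone, at 385 to 636 bases.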

How the data were processed

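ChIP-seq of H3K27ac and of H3K4me1 covered aNPC, eA and lA, each with 2 biological replicates. Per the study's methods, the authors aligned reads uniquely to mm9 with Bowtie, merged both replicates with SAMtools (0.1.19 in the submitters' processing notes) and called peaks with MACS2 at default settings without an input, so regions with high background cannot be told from enriched ones. The deposited −log10 values used here are those of the q-value at a summit. The lists hold no read counts, so depth is unknown, and an absent peak lies under a threshold of unknown height. All peak columns were those of the 6 groups, and 0 columns were left unused for want of a label. A further 8 RNA-seq libraries have conflicting labels and were not assigned.

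Peaks outside the mitochondrial chromosome were joined to GENCODE M1 genes with Python 3.11.15 and NumPy 2.4.6, and plots were drawn with matplotlib 3.10.9. Peaks of different lists were shared if they overlapped by 1 bp or more, and covered bases were those of a window inside peaks. The interval code was tested on random intervals, and the fold call on the aNPC H3K27ac list with the peaks of chosen genes trimmed. The trimming was set beyond the 2 times of a call, so it checked the code and not how often real lists give a false call. Shares carry 95% Wilson intervals. Sequences came from the mm9 genome, and those shown overlap no annotated UTR. The genes and lists were chosen with earlier results of these data known. Every one of the 9 genes is named, and of the pathway list Notch4, Dll4 and up to 5 genes called higher and 5 called lower for H3K27ac from aNPC to lA, with the 3 genes nearest in covered bases to the gene with the highest and to that with the lowest ratio, a stage at 0 being placed lowest. All 50 pathway genes and 40 of 42 markers were matched by symbol. Alternatives were a −log10 q of at least 5, equal numbers of peaks per mark, a 5 kb flank, peaks nearest to the gene's own start site, 2 other promoter definitions, sharing by summit, folds of 1.5, at least 1000 covered bases and 500-base motif windows.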

Additional observations from a re-analysis of the deposited data

How the results depend on the processing

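Of the alternative values of the counts, shares and covered bases, 151 stayed within 1.5 times the value given above or, for shares, inside its interval, and 27 did not. A −log10 q of at least 5 left 8 H3K27ac peaks found in eA alone. Equal numbers of peaks per mark left 14 in lA alone, and made 1 gene, Dll1, lower for H3K4me1 from aNPC to lA. With sharing judged by the summit, 21 peaks were found in eA alone and 35 in lA alone. With a flank of 5 kb, 0 genes were lower for H3K27ac from eA to lA and 1 was higher from aNPC to lA, since Notch3 was no longer called (ratio 1.21). With peaks nearest to the gene's own start site, H3K27ac covered 35.9 kb in eA and numbered 68 peaks in lA, 0 genes were lower for H3K27ac from eA to lA, and 1 was lower for H3K4me1 from eA to lA and 1 from aNPC to lA (Dll3 in both). A minimum of 1000 covered bases left 1 gene lower for H3K27ac from aNPC to eA and 1 from aNPC to lA, Jag2 being left out. A fold of 1.5 gave 2 genes higher for H3K27ac from aNPC to eA, 1 higher from eA to lA and 4 lower from aNPC to lA, and for H3K4me1 2 lower from eA to lA, 2 higher and 2 lower from aNPC to lA. With motif windows of 500 bases, which hold more letters, the shares of H3K27ac windows were 51.5% for TGGGAA, 24.1% for TTGGCA, 13.5% for TGANTCA, 10.9% for AACCACA, 13.5% for TTCNNNGAA and 27.8% for CAGCTG, against 41.1%, 28.1%, 15.5%, 9.74%, 15.4% and 27.4% of the lists. The 4 alternatives that change peaks or windows were applied to the 10 calls, and 37 of 40 were kept. The exceptions were Notch3 with the flank of 5 kb, and Dll3 from eA to lA with that flank and with peaks nearest to its own start site, where 254 and 0 bases gave no ratio. Leaving out Dner, chosen after seeing the data, gave 12.0% of H3K27ac elements in eA and lA. No paired analysis was possible because the replicates of each stage were merged before peaks were called, and for the same reason no replicate could be left out. For differences other than those just described as following from the construction of an alternative, the cause was not tested. The unknown depth limits what an absent peak can show.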
